A study of Arabidopsis thaliana with 8 samples.

Results

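The comparison described here sets 2 arrays of wild-type seedlings given dexamethasone for 4 h against 2 arrays of an untreated transgenic line. All 4 belong to a series of 8 arrays, and they were chosen by their labels alone: the samples titled as wild type at 4 h and those titled as the transgenic line at 0 h. Every sample was Arabidopsis thaliana of the Ws-0 accession, as whole 8-day-old seedlings on Affymetrix ATH1 arrays. The wild type (Ws-0, no transgene) had been in dexamethasone, a synthetic glucocorticoid, for 4 h. The line carried 35S:LEC2-GR, in which the cauliflower mosaic virus 35S promoter drives a fusion of the seed transcription factor LEAFY COTYLEDON2 to the steroid-binding domain of a glucocorticoid receptor throughout the plant, and it was sampled with no treatment. The other 4 arrays hold that line with dexamethasone for 1 h or for 4 h, 2 arrays each, and serve here only to place the values. Since neither untreated wild type nor a mock-treated group is among the samples analysed here, dexamethasone with its handling, the 4 h between samplings and the transgene cannot be told apart in any difference below. The labels call the arrays replicates but do not say that they came from separate cultures, so p-values measure only the spread between these samples, which may be technical.

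Seedlings live on the sugar that their leaves make and on stored starch. When sugar runs short, a plant-wide programme led by the kinase SnRK1 switches on genes for autophagy and for the breakdown of amino acids, and it slows the building of ribosomes and cell walls. Touch, cold, heat and lack of oxygen each switch on their own marker genes, many of them within minutes to hours, and the same hours also carry the daily rhythm of the clock and of photosynthesis genes.

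Values are signals as the authors deposited them, in arbitrary units with every array scaled to the same trimmed mean of 500.05. Differences are log2 changes of signal plus 45, wild type minus untreated line, with the standard error (SE) of a limma fit across all 8 arrays. A probe set, the group of short probes that reads 1 transcript, counted as called if its p, adjusted by Benjamini-Hochberg over all 22746 non-control probe sets, was under 0.05, and every adjusted p below is of that kind. The 2 untreated arrays correlated at 0.971 and the 2 wild-type arrays at 0.978. The array medians of the 4 ran from 170 to 191. The GAPDH 3′ to 5′ ratio, a sign of RNA integrity, was 2.30 and 3.22 in the untreated line and 2.74 and 2.66 in wild type, so the groups overlapped. The actin ratio, a second such sign, was 6.90 and 13.4 untreated and 10.9 and 12.1 in wild type, also with overlap, and it differed most between the untreated arrays. The brightest probe set reached 55404 and 70130 on the untreated arrays and 38890 and 41345 on the wild-type arrays. No probe set carried the name of LEC2, so the level of the transgene was not analysed here.

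Of the 22746 probe sets, 4045 (17.8%) were called: 2191 (9.63%) were higher in wild type with dexamethasone and 1854 (8.15%) were lower. At least 2-fold changes on this scale were found for 1075 of the higher and 779 of the lower, and at least 8-fold changes for 22 and 26. The median change over all probe sets was 0.01. Both wild-type arrays lay above both untreated arrays for 6672 probe sets (29.3%) and below them for 6013 (26.4%), which is the background for statements that groups do not overlap. Leaving out wild-type replicate 1 lowered the calls to 2199 and leaving out wild-type replicate 2 lowered them to 2352. Against this background the other comparisons of the series called 4773 probe sets (21.0%) for the line at 4 h against untreated, 2076 (9.13%) for the line at 1 h against untreated, and 755 (3.32%) for wild type at 4 h against the line at 4 h. The first 2 of these share the untreated arrays with the comparison described here and the last shares the wild-type arrays.

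**Figure D1:**
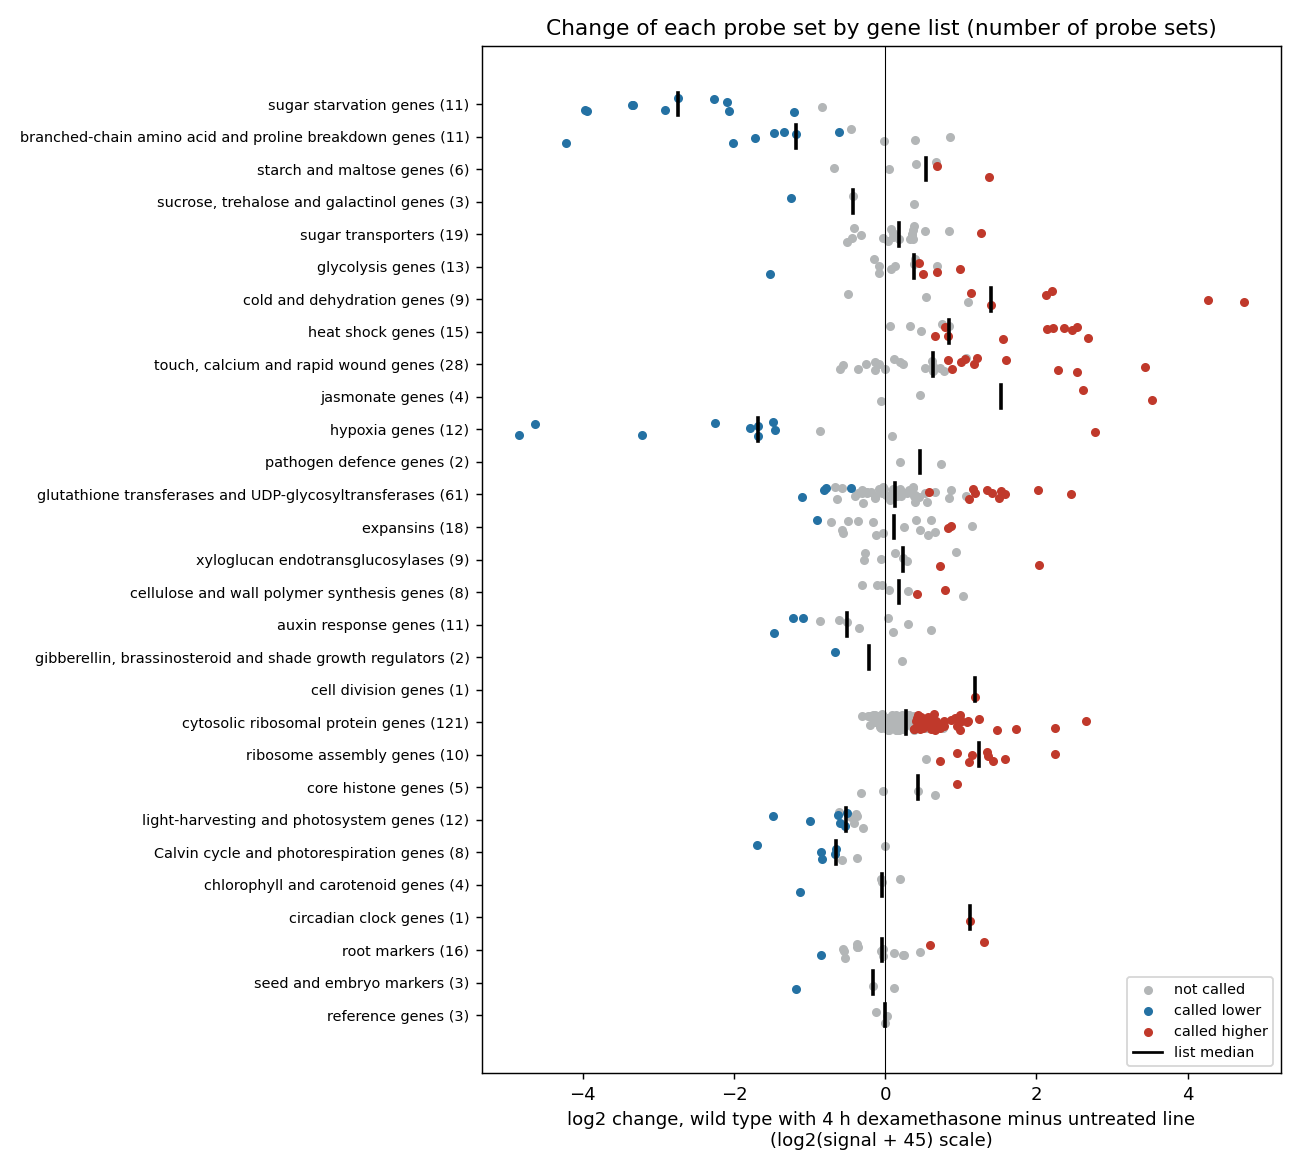
Log2 change (signal plus 45) of each probe set, wild type with 4 h dexamethasone minus untreated line, by gene list with the number of probe sets in brackets. Red and blue points were called higher and lower, grey points were not called, and a black bar marks each list's median. Sugar starvation (median -2.74) and hypoxia genes (-1.68) sit to the left, and cold (1.40), ribosome assembly (1.25) and heat shock genes (0.84) to the right.

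Genes that mark sugar starvation were far lower in dexamethasone-treated wild type than in the untreated line. Of 45 listed genes, 11 had a named probe set. Of these 11, 10 were called lower and none higher, against 8.15% of all probe sets called lower, with a median change of -2.74. This and the other lists were written with earlier results of these data known, so their counts are not independent support. The counts of every list cover only members with a named probe set. AKINBETA1, a regulatory subunit of the SnRK1 kinase, had signals of 5878 and 5121 in the untreated line and 479.5 and 524 in wild type. Its wild-type values lay far below the untreated ones, a log2 change of -3.34 ± 0.16 (SE; adjusted p = 7.09e-07). AT2G32150, a hydrolase of the haloacid dehalogenase type, read 4351 and 4322 against 238 and 229, a log2 change of -3.98 ± 0.17 (SE; adjusted p = 4.68e-07). AT3G15450, a sugar- and dark-responsive protein with YGL and LRDR motifs, was the brightest of the list at 22544 and 22468 against 3256 and 3422, a log2 change of -2.74 ± 0.20 (SE; adjusted p = 8.57e-06). ATG8E, which coats the membrane of autophagosomes, read 2301 and 2043 against 400.5 and 432. Its change was -2.26 (adjusted p = 1.89e-05). For all 11 genes of the list both wild-type arrays were below both untreated arrays, against 26.4% of all probe sets.

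Other members of the starvation list were lower too. AT2G20670, a protein of unknown function, read 4841 and 2824 against 232 and 168, a log2 change of -3.95 ± 0.45 (SE; adjusted p = 1.30e-04). AT1G23390, a Kelch-domain F-box protein that marks chalcone synthase for degradation, read 5133 and 3511 against 397 and 357, a log2 change of -3.35 ± 0.20 (SE; adjusted p = 2.33e-06). The PB1-domain protein AT3G26510 changed by -2.91, AT3G15630 by -2.09 and the xylose isomerase AT5G57655 by -2.07, each called. AT5G14120, a nodulin-like transporter of the major facilitator family, had the smallest called change, a log2 change of -1.21 ± 0.22 (SE; adjusted p = 0.00335), and was not called without wild-type replicate 1 (adjusted p = 0.0537). The RING-type ubiquitin ligase ATL8 was dim (196 and 315 against 149.8 and 93.7) and not called, a log2 change of -0.84 ± 0.32 (SE; adjusted p = 0.106).

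In the line the starvation genes were already low 1 h after dexamethasone. AKINBETA1 read 876 and 687 at 1 h and 554 and 431 at 4 h. AT2G32150 read 872 and 644 at 1 h and 176 and 133 at 4 h, so its 1 h values were still above those at 4 h. Of the 11 genes, 9 were called lower at 1 h and 10 at 4 h, both against the untreated arrays, where 3.90% and 9.94% of all probe sets were called lower. Wild type at 4 h and the line at 4 h differed by test for 1 of the 11, against 3.32% of all probe sets. That gene was AT5G14120, which read 5492 and 7694 in the line at 4 h against 2812 and 3759 in wild type (wild type minus line at 4 h -0.99, adjusted p = 0.0371), and 1.82% of all probe sets were called lower there.

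Enzymes that break down branched-chain amino acids were lower as well. Of 11 genes for the breakdown of leucine, isoleucine, valine and proline, 7 were called lower and none higher. Among all probe sets 8.15% were called lower. The list's median change was -1.19. MCCA, the biotin-carrying part of the methylcrotonyl-CoA carboxylase of the leucine pathway, read 4696 and 4387 in the untreated line and 166 and 243 in wild type. Its groups were far apart, a log2 change of -4.22 ± 0.21 (SE; adjusted p = 8.90e-07), the third largest fall of any named gene. Its partner subunit MCCB read 3679 and 3660 against 1064 and 1097, a log2 change of -1.72 ± 0.14 (SE; adjusted p = 1.77e-05). IVD, the isovaleryl-CoA dehydrogenase one step upstream, read 1578 and 1632 against 347 and 380.4, a log2 change of -2.01 ± 0.14 (SE; adjusted p = 4.54e-06). AT2G26800, the lyase that ends the leucine pathway, changed by -1.34 (adjusted p = 1.18e-04). ETFQO, which passes the electrons of these steps to ubiquinone, changed by -1.48 (adjusted p = 2.69e-04), and ALDH6B2 of the valine branch by -1.19 (adjusted p = 0.00233). ETFBETA, a subunit of the electron carrier before ETFQO, changed by -0.61 (adjusted p = 0.0112) and lost its call without untreated replicate 1 (adjusted p = 0.0526), untreated replicate 2 (adjusted p = 0.0525), wild-type replicate 1 (adjusted p = 0.0575) or wild-type replicate 2 (adjusted p = 0.0798). The other subunit, ETFALPHA, was not called at -0.45 (adjusted p = 0.18), nor was AT5G09300, a subunit of the branched-chain ketoacid dehydrogenase, at 0.86 (adjusted p = 0.153). In the line MCCA read 978 and 728 at 1 h and 253 and 165 at 4 h, so its 1 h values lay between the untreated and the 4 h values.

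**Figure D2:**
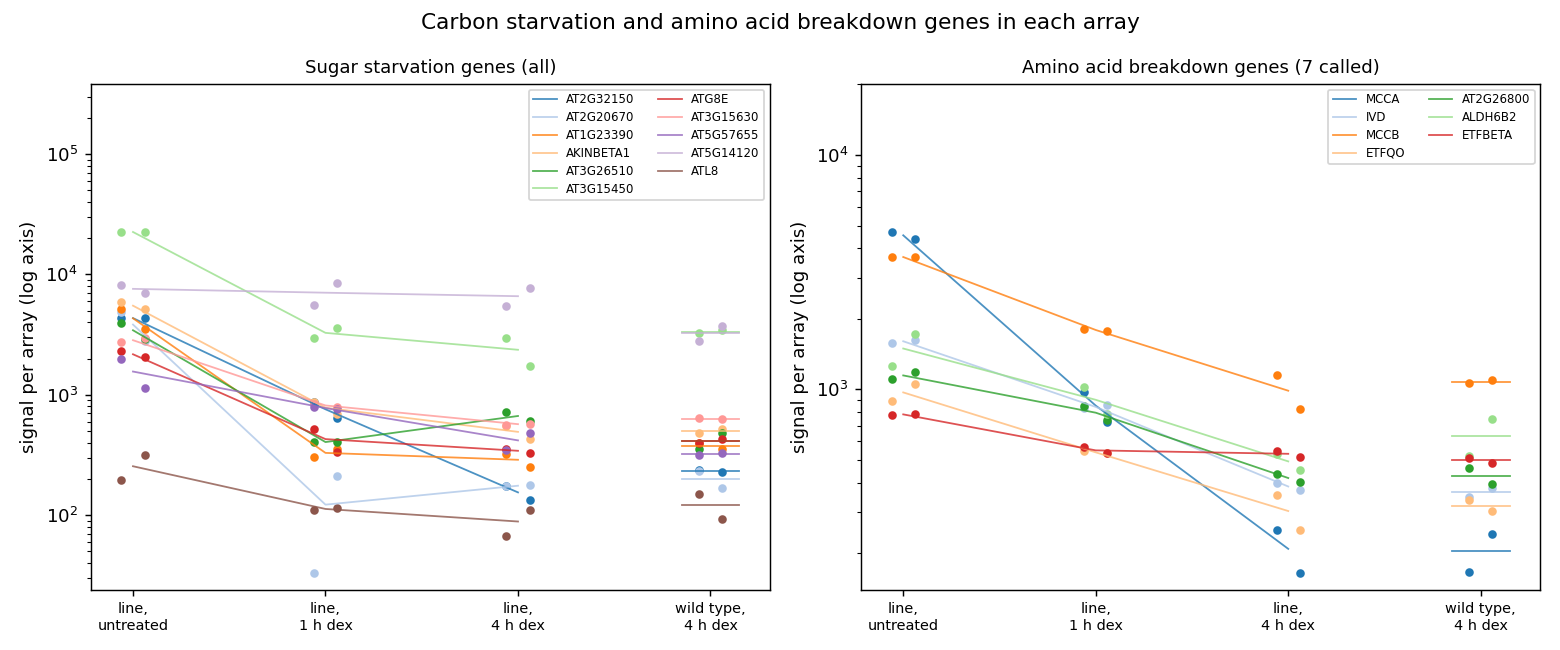
Signal on each array (log axis) of the 11 sugar starvation genes and of the 7 called amino acid breakdown genes, with 2 points per group. Lines join the means of the transgenic line at 0, 1 and 4 h, and short bars mark the wild-type means. The untreated arrays are highest for nearly every gene, as for AKINBETA1 at 5878 and 5121 against 479.5 and 524 in wild type.

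Named probe sets covered 6 of 38 listed starch and maltose genes and 3 of 39 of sucrose and related sugars. Of the 6, 2 were called higher and none lower, and of the 3, 1 was called lower. Among all probe sets 9.63% were called higher and 8.15% lower. PWD (AT5G26570), the phosphoglucan water dikinase that opens starch granules for breakdown, read 553 and 486 in the untreated line and 1276 and 1556 in wild type, with no overlap, a log2 change of 1.37 ± 0.15 (SE; adjusted p = 1.34e-04). DPE1, which recycles the maltotriose left by starch breakdown, read 451 and 527 against 749.9 and 877, a log2 change of 0.69 ± 0.15 (SE; adjusted p = 0.00885), and was not called without untreated replicate 1 (adjusted p = 0.0654) or wild-type replicate 2 (adjusted p = 0.0952). The sucrose phosphate synthase ATSPS4F read 749 and 553 against 252 and 241, a log2 change of -1.24 ± 0.23 (SE; adjusted p = 0.00336). The next enzyme of sucrose synthesis, the phosphatase AT2G35840, was not called at -0.43 (adjusted p = 0.0725). The vacuolar invertase AT1G62660 was not called either (0.38, adjusted p = 0.222), although wild type at 4 h was above the line at 4 h (wild type minus line at 4 h 0.99, adjusted p = 0.0158).

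Among 19 sugar transporters, 1 was called, against 17.8% of all probe sets. It was the vacuolar fructose carrier SWEET17, which read 208 and 171 in the untreated line and 444 and 598 in wild type, a log2 change of 1.26 ± 0.23 (SE; adjusted p = 0.00279). In the line it stood at 404 and 371 at 1 h and 135 and 181 at 4 h, and wild type exceeded the line at 4 h by 1.48 (adjusted p = 0.00456). SWEET11, a plasma membrane sucrose carrier and the brightest of the list, was not called, a log2 change of -0.31 ± 0.10 (SE; adjusted p = 0.0624).

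Of 13 glycolysis genes, 4 were called higher and 1 lower, where 9.63% and 8.15% of all probe sets were, with a median of 0.38. The pyruvate kinase AT5G56350 read 1015 and 993 against 2050 and 2015, a log2 change of 0.99 ± 0.13 (SE; adjusted p = 3.89e-04). AT1G20950, a subunit of the pyrophosphate-dependent phosphofructokinase, read 1906 and 2017 against 3241 and 3136, a log2 change of 0.69 ± 0.13 (SE; adjusted p = 0.00311). The 4 rises became 2 without untreated replicate 2, without wild-type replicate 2 or without the mean-variance trend of the limma fit. The other 2 rises were under 0.50 on the log2 scale and each lost its call without at least 1 array: AT5G08570, a second pyruvate kinase, without untreated replicate 2 (adjusted p = 0.0533), wild-type replicate 1 (adjusted p = 0.0527) or wild-type replicate 2 (adjusted p = 0.0791), and AT1G12000, the partner subunit of that phosphofructokinase, without untreated replicate 1 (adjusted p = 0.0571), untreated replicate 2 (adjusted p = 0.0665), wild-type replicate 1 (adjusted p = 0.0924) or wild-type replicate 2 (adjusted p = 0.0821). PPDK, which runs the pyruvate kinase step backwards and is known to be switched on when leaves recycle nitrogen, read 1073 and 792 against 277 and 309, a log2 change of -1.52 ± 0.21 (SE; adjusted p = 5.85e-04).

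Cold and dehydration genes held the largest rise of any named gene in the comparison. Of 37 listed genes 9 had a named probe set, and of these 6 were called higher and none lower. Among all probe sets 9.63% were called higher, and the list's median change was 1.40. AT4G30650, a small hydrophobic membrane protein of the low-temperature-inducible RCI2 family, read 249.5 and 162 in the untreated line and 7158 and 6076 in wild type. It lay at 1043 and 508 at 1 h and 3790 and 2829 at 4 h in the line, so the groups stood in separate ranges, a log2 change of 4.75 ± 0.28 (SE; adjusted p = 2.36e-06). Its neighbour in that family, AT4G30660, read 703 and 1004 against 2401 and 2177, a log2 change of 1.40 ± 0.22 (SE; adjusted p = 0.00137), and wild type was above the line at 4 h, a direction found for 1.50% of all probe sets (wild type minus line at 4 h 1.05, adjusted p = 0.0278). COR15A, which protects chloroplast membranes in the cold, read 24.7 and 5.5 in the untreated line and 1941 and 611 in wild type, a log2 change of 4.27 ± 0.51 (SE; adjusted p = 1.93e-04). The 2 wild-type arrays differed from each other, and both were far above the untreated ones.

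The dehydrin LTI30 read 455 and 407 against 2477 and 1883, a log2 change of 2.21 ± 0.26 (SE; adjusted p = 1.56e-04). In the line LTI30 was highest at 1 h, at 8235 and 4617, and lower at 4 h, at 1863 and 1242. COR15B read 118 and 43.7 against 639 and 357, a log2 change of 2.13 ± 0.45 (SE; adjusted p = 0.00691), and was not called without untreated replicate 2 (adjusted p = 0.0712) or wild-type replicate 1 (adjusted p = 0.0952). AT4G33980, a clock-regulated cold protein, was dim at 10.4 and 40.2 against 95.7 and 118, a log2 change of 1.14 ± 0.34 (SE; adjusted p = 0.0396), and was not called without untreated replicate 1 (adjusted p = 0.223), wild-type replicate 1 (adjusted p = 0.119) or wild-type replicate 2 (adjusted p = 0.187). COR27, a related night-time regulator, read 57.9 and 45.7 against 138 and 189.8 and was not called, a log2 change of 1.10 ± 0.35 (SE; adjusted p = 0.0546). The bright dehydrin COR47 was not called at 0.54 (adjusted p = 0.0777), nor was HVA22C at -0.49 (adjusted p = 0.105).

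Of 50 listed heat shock genes 15 had a named probe set. Of these, 10 were called higher and none lower, against 9.63% of all probe sets called higher. Their median change was 0.84. AT3G09440, a cytosolic HSP70 chaperone, read 1270 and 1181 in the untreated line and 8024 and 6705 in wild type, a log2 change of 2.54 ± 0.19 (SE; adjusted p = 9.67e-06). The small heat shock protein AT2G29500 read 72.9 and 128 against 1060 and 721, a log2 change of 2.69 ± 0.31 (SE; adjusted p = 1.40e-04). A second small heat shock protein, AT1G54050, read 68.2 and 48.0 against 573 and 480.5, a log2 change of 2.47 ± 0.36 (SE; adjusted p = 7.82e-04). The mitochondrial member AT5G51440 changed by 2.37 (adjusted p = 4.45e-05), and the FKBP-type co-chaperone AT5G48570 by 2.22 (adjusted p = 7.28e-05). Over the whole list both wild-type arrays exceeded both untreated arrays for 12 of the 15 genes, against 29.3% of all probe sets. AT4G21870, the brightest small heat shock protein of the list, read 3122 and 3617 against 5451 and 6281, a log2 change of 0.79 ± 0.16 (SE; adjusted p = 0.00471), lost its call without untreated replicate 1 (adjusted p = 0.0534) or wild-type replicate 2 (adjusted p = 0.0599), and stood at 11656 and 8560 at 1 h and 2937 and 2710 at 4 h in the line. It was the 1 heat shock gene of the list that differed by test between wild type and the line at 4 h (wild type minus line at 4 h 1.04, adjusted p = 0.00385).

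Of 28 genes known for rapid answers to touch, calcium and wounding, 10 were called higher and none lower, against 9.63% of all probe sets. The count was 5 without wild-type replicate 1 and 6 without untreated replicate 2. AT5G35735, a membrane protein of the DOMON and cytochrome b type, read 363 and 303 in the untreated line and 4004 and 4080 in wild type, a log2 change of 3.44 ± 0.21 (SE; adjusted p = 2.83e-06). The VQ-motif protein AT2G22880 read 8.9 and 9.2 against 437 and 159, a log2 change of 2.54 ± 0.39 (SE; adjusted p = 9.74e-04). Both were also high in the line, AT5G35735 at 5235 and 3145 at 1 h and 3840 and 4976 at 4 h and AT2G22880 at 877 and 494 and 282 and 316. STZ (ZAT10), a zinc-finger repressor induced by many stresses, read 87.9 and 142 against 788 and 662, a log2 change of 2.28 ± 0.21 (SE; adjusted p = 2.87e-05). The calmodulin-like protein CML42 changed by 1.60 (adjusted p = 8.06e-05), and AT2G46600, a calcium-binding protein of the KIC type, by 0.89 (adjusted p = 0.00154).

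Of 4 jasmonate oxidases, which inactivate the wound hormone jasmonate, 2 were called higher, against 9.63% of all probe sets. AT5G05600 read 161 and 83.4 in the untreated line and 1929 and 1757 in wild type, a log2 change of 3.54 ± 0.34 (SE; adjusted p = 4.30e-05). AT2G38240 read 43.6 and 50.8 against 719.7 and 371, a log2 change of 2.61 ± 0.37 (SE; adjusted p = 6.18e-04). Both stood well clear of the untreated arrays. In the line AT5G05600 read 4674 and 2004 at 1 h and 846 and 1203 at 4 h. The other 2 were near the bottom of the scale in both groups and were not called.

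Most hypoxia genes that could be read were lower in wild type. Of 30 listed genes 12 had a named probe set, while ADH1, PDC1, HB1, LBD41, PCO1 and HRE1 were among those without. Of the 12, 9 were called lower and 1 higher, against 8.15% and 9.63% of all probe sets, with a median of -1.68. AT1G33055, a small protein of unknown function, read 1896 and 1465 in the untreated line and 10.8 and 18.1 in wild type, a log2 change of -4.85 ± 0.30 (SE; adjusted p = 2.86e-06), the largest fall of any named gene. It read 23.1 and 17.5 at 1 h in the line, so it was near the bottom of the scale on every dexamethasone-treated array. AT4G27450, of the same YGL and LRDR family as AT3G15450, read 10334 and 8014 against 362 and 286, a log2 change of -4.64 ± 0.23 (SE; adjusted p = 7.35e-07). AT1G19530 read 2285 and 2404 against 209.6 and 213, a log2 change of -3.22 ± 0.16 (SE; adjusted p = 7.09e-07). The wound-responsive family protein AT4G10270 changed by -2.25 (adjusted p = 4.95e-04), AT5G66985 by -1.79 (adjusted p = 0.00318), and AT3G03270, the universal stress protein HRU1 of the oxygen-sensing pathway, by -1.46 (adjusted p = 4.18e-04). AT3G10040, the trihelix regulator HRA1 that restrains the hypoxia response, changed by -1.69 and was not called without wild-type replicate 2 (adjusted p = 0.0878). AT4G33560 (-1.68) was not called without untreated replicate 1 (adjusted p = 0.0514), and AT5G10040 (-1.49) was not called without untreated replicate 1 (adjusted p = 0.0917) or wild-type replicate 1 (adjusted p = 0.138).

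The rise in the hypoxia list was PDC2, a pyruvate decarboxylase of ethanol fermentation, at 109 and 201 in the untreated line and 1419 and 1170 in wild type, a log2 change of 2.78 ± 0.21 (SE; adjusted p = 1.13e-05). AT3G27220 was not called at -0.86 (adjusted p = 0.211). AT4G24110 read 117 and 46.3 in the untreated line and 76.2 and 94.0 in wild type, with overlapping groups and no call (adjusted p = 0.898). In the line it read 281 and 458 at 1 h and 626 and 771 at 4 h, and at 4 h the line exceeded wild type (wild type minus line at 4 h -2.51, adjusted p = 0.00136).

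**Figure D3:**
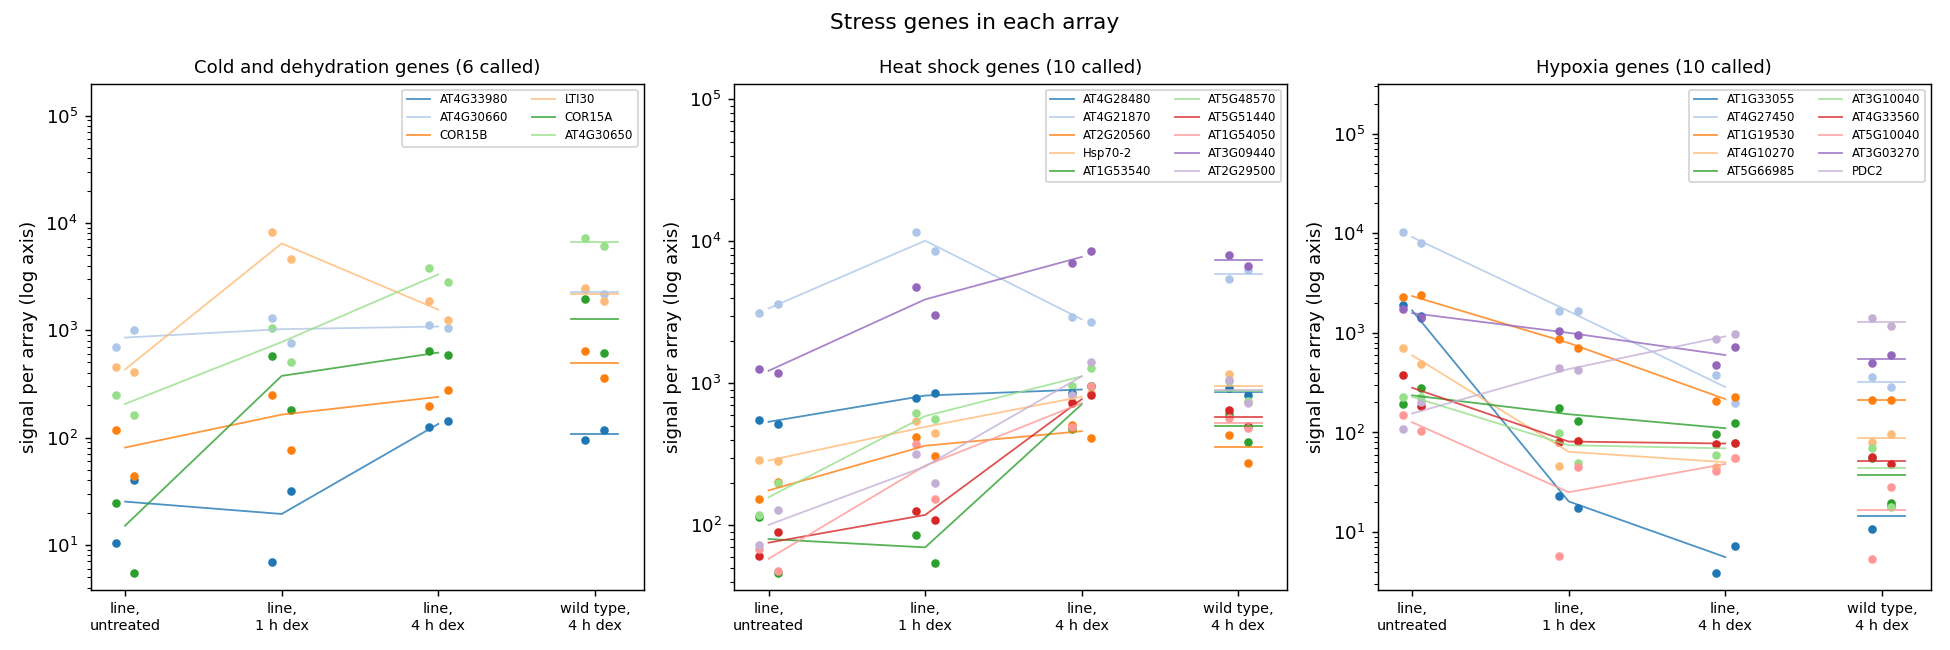
Signal on each array (log axis) of the called cold and dehydration (6), heat shock (10) and hypoxia (10) genes, with 2 points per group. Lines join the means of the transgenic line at 0, 1 and 4 h, and short bars mark the wild-type means. Wild-type AT4G30650 stands at 7158 and 6076 against 249.5 and 162 in the untreated line, and AT1G33055 at 10.8 and 18.1 against 1896 and 1465.

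Of 61 glutathione transferases and UDP-glycosyltransferases, enzymes that tag foreign and internal compounds, 11 were called higher and 4 lower, with a median of 0.13, where 9.63% and 8.15% of all probe sets were, so the count of falls was near the background. The higher count fell to 5 without wild-type replicate 1, and the lower count to 2 without any 1 of the 4 arrays. UGT73C1 read 18.3 and 6.5 in the untreated line and 261 and 275 in wild type, a log2 change of 2.45 ± 0.33 (SE; adjusted p = 4.18e-04). UGT73B5 read 76.8 and 62.5 against 478 and 369.5, a log2 change of 2.02 ± 0.31 (SE; adjusted p = 0.00112). UGT74B1, the glycosyltransferase of glucosinolate synthesis, read 384 and 346 against 1123 and 1157, a log2 change of 1.53 ± 0.16 (SE; adjusted p = 6.28e-05). UGT76E11 changed by 1.59 (adjusted p = 8.00e-04) and GSTU22 by 1.51 (adjusted p = 0.00124). Of the falls, the largest was GSTU18, at 1147 and 807 against 411 and 442, a log2 change of -1.10 ± 0.17 (SE; adjusted p = 0.00129). Neither of the 2 pathogen defence genes with a probe set was called.

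Growth genes split by function, and those of ribosome building were higher in wild type. Of 10 ribosome assembly genes, 9 were called higher and none lower, against 9.63% of all probe sets called higher, with a median of 1.25. The 2 Brix-family factors of the large subunit were AT3G15460, at 149 and 308 in the untreated line and 1334 and 1075 in wild type, and AT1G52930, at 764 and 819.6 and 2175 and 2242. Their changes were 2.25 (adjusted p = 8.86e-05) and 1.43 (adjusted p = 4.00e-05), and in both the wild-type arrays stood clear of the untreated ones. AT3G05060, a NOP56/NOP58-type core protein of the particles that methylate ribosomal RNA, read 498 and 567 against 1668 and 1709, a log2 change of 1.59 ± 0.13 (SE; adjusted p = 1.81e-05). IMP4, of the U3 particle that cuts the precursor, read 470.4 and 533 against 1425 and 1268, a log2 change of 1.35 ± 0.14 (SE; adjusted p = 6.05e-05). The pseudouridylation-particle proteins AT5G08180 (NHP2 type) and AT3G03920 (GAR1 type) changed by 1.37 (adjusted p = 6.05e-05) and 0.72 (adjusted p = 0.00144). The Pescadillo homologue AT5G14520 changed by 1.10 (adjusted p = 1.10e-04). AT1G23280, of the MAK16 type, changed by 1.15 and was not called without untreated replicate 1 (adjusted p = 0.177), wild-type replicate 1 (adjusted p = 0.145) or wild-type replicate 2 (adjusted p = 0.0915). The NOP2-type methyltransferase AT4G26600 changed by 0.95 and was not called without untreated replicate 1 (adjusted p = 0.0963), untreated replicate 2 (adjusted p = 0.066), wild-type replicate 1 (adjusted p = 0.177) or wild-type replicate 2 (adjusted p = 0.0764). PCN, a WD40-repeat protein, was not called at 0.54 (adjusted p = 0.0864).

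In the line 2 of the 10 ribosome assembly genes were called higher at 1 h than in the untreated arrays, where 5.22% of all probe sets were, and all 10 at 4 h, where 11.0% were. AT3G05060 read 767 and 690.1 at 1 h and 1485 and 1717 at 4 h. None of the 10 differed by test between wild type and the line at 4 h, where 3.32% of all probe sets did.

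Of 121 cytosolic ribosomal protein genes, 42 were called higher and none lower, where 9.63% and 8.15% of all probe sets were. The list's median change was 0.27, against 0.01 for all probe sets. Both wild-type arrays exceeded both untreated arrays for 80 of the 121, against 29.3% of all probe sets. The count of called genes ranged from 21 to 25 when 1 of the 4 arrays was left out. It was 25 without either untreated array, and 22 and 21 when wild-type replicate 1 or 2 was left out. It was 19 without the mean-variance trend of the fit. AT2G32220, a large-subunit protein, read 237 and 209 in the untreated line and 1583 and 1709 in wild type, a log2 change of 2.66 ± 0.13 (SE; adjusted p = 7.35e-07). The small-subunit protein AT3G57490 read 513 and 533 against 2762 and 2525, a log2 change of 2.24 ± 0.13 (SE; adjusted p = 2.36e-06). AT5G39850, also of the small subunit, read 294 and 395 against 1267 and 1199, a log2 change of 1.73 ± 0.17 (SE; adjusted p = 4.46e-05). AT5G59240 changed by 1.48 (adjusted p = 0.00165) and AT4G30800 by 1.24 (adjusted p = 6.88e-04). These 5 were dim for the list: the called genes had a median signal of 3836 and those not called of 10529. Ribosomal proteins have near-identical gene copies, and probes can read more than 1 of them, so the change of a single copy is uncertain. At 1 h in the line 3 of the 121 were called higher and 1 lower than in the untreated arrays, where 5.22% and 3.90% of all probe sets were, and at 4 h 44 were called higher and none lower, where 11.0% and 9.94% were.

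**Figure D4:**
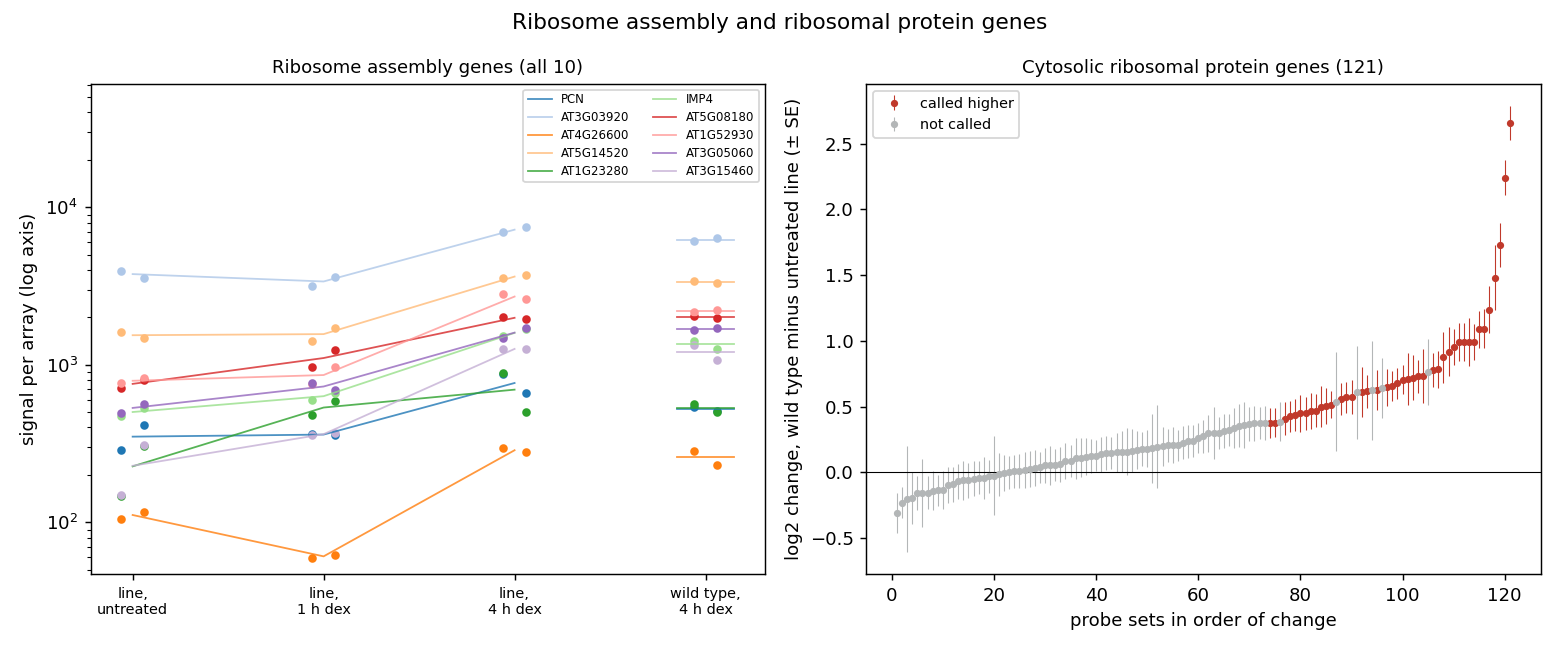
Left: signal on each array (log axis) of the 10 ribosome assembly genes, with lines through the means of the transgenic line at 0, 1 and 4 h and short bars at the wild-type means. Right: log2 change with SE of the 121 ribosomal protein probe sets, wild type minus untreated line, in order of size, with called ones in red. Of the 121, 42 were called, up to 2.66 for AT2G32220.

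Of 18 expansins, which loosen walls, 2 were called higher and 1 lower, a share near the 17.8% of all probe sets called, with a median of 0.11. The 2 rises became 1 without the variance trend of the fit, and 5 with the filter on low values. EXPA4 read 299 and 313 in the untreated line and 664 and 535 in wild type, a log2 change of 0.87 ± 0.15 (SE; adjusted p = 0.00251). It was higher still in the line at 4 h, at 1294 and 1424 (wild type minus line at 4 h -1.13, adjusted p = 0.00217). EXPA15 (0.84) was not called without untreated replicate 1 (adjusted p = 0.232), wild-type replicate 1 (adjusted p = 0.237) or wild-type replicate 2 (adjusted p = 0.0635). EXPA8 (-0.90) was not called without untreated replicate 1 (adjusted p = 0.126), untreated replicate 2 (adjusted p = 0.0938), wild-type replicate 1 (adjusted p = 0.121) or wild-type replicate 2 (adjusted p = 0.123), and it read 148 and 135 in the line at 1 h, 1689 and 1593 untreated and 861 and 849 in wild type.

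Of 9 xyloglucan endotransglucosylases, which cut and rejoin wall polymers, 2 were called higher, against 9.63% of all probe sets. XTH20 read 103 and 91.0 against 518 and 561, a log2 change of 2.04 ± 0.27 (SE; adjusted p = 3.71e-04), and stood at 134 and 188 in the line at 4 h (wild type minus line at 4 h 1.51, adjusted p = 0.0101). XTH32 (0.73) was not called without untreated replicate 2 (adjusted p = 0.102) or wild-type replicate 1 (adjusted p = 0.13). Of 8 cellulose and wall polymer genes 2 were called higher, COB (0.42) and CSLC5 (0.79), against 9.63% of all probe sets. The 2 calls became 0 without untreated replicate 1 or without wild-type replicate 1, and 1 without either of the other arrays.

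Of 55 listed auxin response genes 11 had a named probe set. Of these, 3 were called lower and none higher, against 8.15% of all probe sets called lower, with a median of -0.50. GH3.17, which joins auxin to glutamate, read 884 and 676 in the untreated line and 207 and 300.1 in wild type, a log2 change of -1.47 ± 0.20 (SE; adjusted p = 4.37e-04). The auxin repressor gene IAA18 read 1539 and 1675 against 615 and 710.5, a log2 change of -1.22 ± 0.18 (SE; adjusted p = 7.33e-04). IAA29 read 687 and 606 against 293 and 266, a log2 change of -1.09 ± 0.27 (SE; adjusted p = 0.0159), and was not called without untreated replicate 1 (adjusted p = 0.107), untreated replicate 2 (adjusted p = 0.0622), wild-type replicate 1 (adjusted p = 0.0807) or wild-type replicate 2 (adjusted p = 0.108). The 3 calls became 2 without any 1 of the 4 arrays. The gibberellin-regulated family member AT1G22690 read 8160 and 8368 against 5025 and 5395, a log2 change of -0.66 ± 0.11 (SE; adjusted p = 0.00164).

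The 1 cell division gene with a named probe set, PRL, a subunit of the MCM helicase that opens replication origins, read 238 and 243 in the untreated line and 639 and 569 in wild type, a log2 change of 1.18 ± 0.21 (SE; adjusted p = 0.00256). The core histone gene HTB1 read 1562 and 1589 against 2785 and 3414, a log2 change of 0.95 ± 0.16 (SE; adjusted p = 0.00187). It was the 1 of 5 core histone genes called, where 9.63% of all probe sets were called higher. In whole seedlings, a change in the share of dividing or other cells and a change of RNA per cell cannot be told apart, here or for any list.

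Apart from the clock gene GI, the photosynthesis lists held falls and no called rise. For the light-harvesting and photosystem genes the number called depended on the scaling of the arrays. Of the 60 listed light-harvesting and photosystem genes, 12 had a named probe set. Of these 12, 6 were called lower and none higher, against 8.15% of all probe sets called lower. The list's median was -0.52. For all 12 both wild-type arrays lay below both untreated ones, against 26.4% of all probe sets. LHCB4.2, a minor antenna protein of photosystem II, read 27657 and 29510 in the untreated line and 9621 and 10714 in wild type, a log2 change of -1.49 ± 0.13 (SE; adjusted p = 2.12e-05). PSB27, an assembly factor of the same photosystem, read 12926 and 15548 against 6307 and 7939 (adjusted p = 0.00171). The other 4 calls were PSBY (-0.62), PSAN (-0.60), PSBW (-0.53) and ATPC1 (-0.51), subunits of both photosystems and of the chloroplast ATP synthase. With quantile normalization, which gives the arrays equal distributions, LHCB4.2 (-1.24) and PSB27 (-0.89) were still called and the other 4 were not, at -0.29 to -0.38, while 17.8% of all probe sets were called. With it the antenna gene LHCB4.1 went from -0.42 to 0.11 and the photosystem I gene PSAE-1 from -0.39 to 0.06, neither called under either scaling. LHCB4.1, at 44379 and 41259 untreated and 33173 and 30919 in wild type, and PSAE-1 are among the brightest probe sets. The 100 brightest took 15.6 and 17.4% of the signal on the untreated arrays and 13.1 and 13.6% on the wild-type arrays. The 6 calls became 3 without untreated replicate 1, 4 without untreated replicate 2, 2 without either wild-type array, and 3 without the variance trend.

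Of 39 listed Calvin cycle and photorespiration genes 8 had a named probe set. Of these, 5 were called lower under both scalings, with a median of -0.66 as deposited. Of all probe sets, 8.15% were called lower as deposited. HPR, the peroxisomal hydroxypyruvate reductase of photorespiration, read 16628 and 17028 in the untreated line and 5208 and 5094 in wild type, a log2 change of -1.70 ± 0.11 (SE; adjusted p = 4.34e-06). The next enzyme of that pathway, the glycerate kinase AT1G80380, read 3355 and 3582 against 1959 and 1849, a log2 change of -0.85 ± 0.11 (SE; adjusted p = 4.26e-04). PRK, the phosphoribulokinase that remakes the acceptor of carbon dioxide, read 18820 and 17891 against 9122 and 11580, a log2 change of -0.83 ± 0.15 (SE; adjusted p = 0.00227). SBPASE, a phosphatase of the Calvin cycle, changed by -0.66 and was not called without untreated replicate 1 (adjusted p = 0.0533) or wild-type replicate 1 (adjusted p = 0.0565). The chloroplast fructose bisphosphatase AT5G64380 changed by -0.66 and was not called without wild-type replicate 1 (adjusted p = 0.0542). The 5 calls became 3 without wild-type replicate 1. RCA, the activase of Rubisco, read 38894 and 43860 against 26527 and 28864 and was not called, a log2 change of -0.58 ± 0.19 (SE; adjusted p = 0.0555). AT1G32470, a subunit of glycine decarboxylase, was not called at -0.38 (adjusted p = 0.062).

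In the line 1 of the 12 and 2 of the 8 were called lower at 1 h than untreated, where 3.90% of all probe sets were, and 8 and 7 at 4 h, where 9.94% were. LHCB4.2 read 18864 and 18714 at 1 h and 10184 and 10027 at 4 h, and HPR 12703 and 12523 and 5295 and 5620. None of the genes in either list differed by test between wild type and the line at 4 h, and neither did most probe sets, of which 3.32% were called. Of 4 chlorophyll and carotenoid genes, with a median of -0.05, 1 was called lower, where 8.15% of all probe sets were. It was CHLM, a methyltransferase of chlorophyll synthesis, at 8767 and 7690 against 3381 and 4164, a log2 change of -1.12 ± 0.15 (SE; adjusted p = 4.93e-04). The clock gene GI, known to peak late in the day, read 406 and 540.2 in the untreated line and 1253 and 927 in wild type, a log2 change of 1.13 ± 0.18 (SE; adjusted p = 0.00119). The labels give no hour of day for any sample, and the part of sampling time in these differences was not tested.

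**Figure D5:**
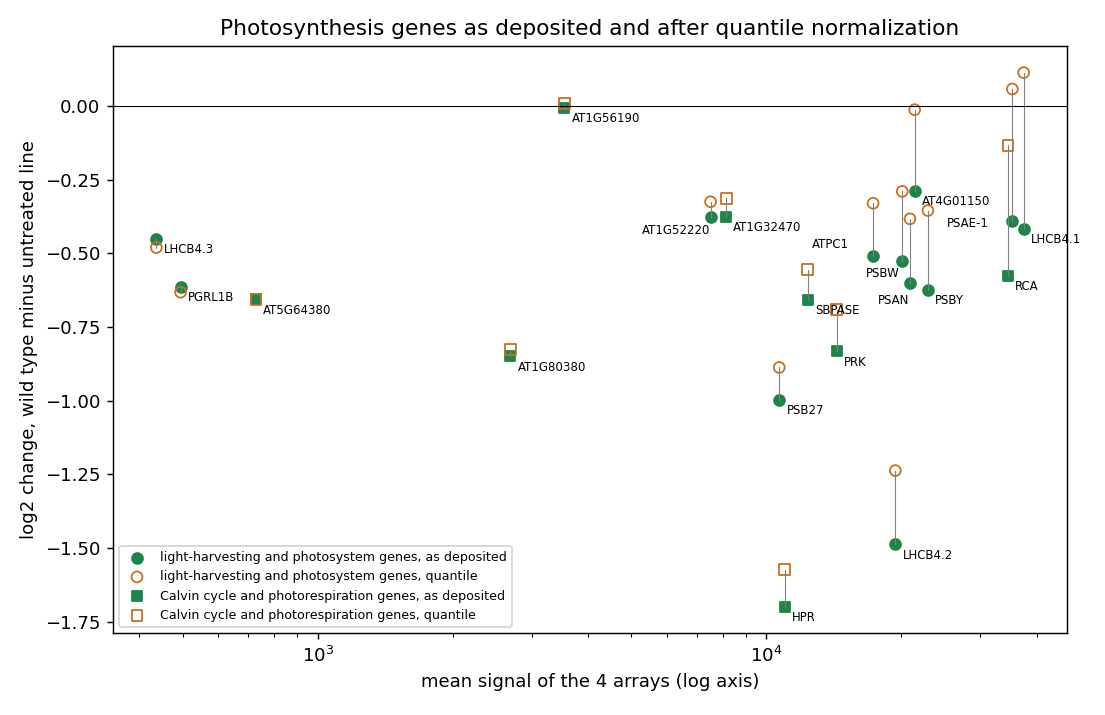
Log2 change of 12 light-harvesting and photosystem genes (circles) and 8 Calvin cycle and photorespiration genes (squares), wild type minus untreated line, against the mean signal of the 4 arrays (log axis). Filled points use the deposited scaling and open points quantile normalization, joined by a line for each gene. The 2 differ most for the brightest genes, as for LHCB4.1 at -0.42 and 0.11.

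Marker lists were read as a check of the samples. Of 16 root markers, 2 were called higher and 1 lower, a share near that of all probe sets (17.8%), with a median of -0.04, and PYK10, an abundant beta-glucosidase of roots and seedlings, read 9931 and 10743 untreated and 12590 and 11777 in wild type, a log2 change of 0.24 ± 0.13 (SE; adjusted p = 0.253). The summed signal of the root list was 23559 and 22712 untreated and 28582 and 28020 in wild type. The 2 rises were the peroxidase AT5G64100 (1.31, adjusted p = 1.25e-05) and NAI2 (0.60), a protein of endoplasmic reticulum bodies that was not called without untreated replicate 2 (adjusted p = 0.0611), wild-type replicate 1 (adjusted p = 0.114) or wild-type replicate 2 (adjusted p = 0.056). The fall was the peroxidase AT4G30170 (-0.85), which was not called without wild-type replicate 1 (adjusted p = 0.0635). Between wild type and the line at 4 h, 6 of the 16 were called, against 3.32% of all probe sets. Wild type was above the line for 3 and below it for 3. LHCB4.1 of the photosynthesis genes and PYK10 of the root markers were bright on all 4 arrays. The 13 root markers not called, PYK10 among them, had a median signal of 155, so PYK10 was not typical of its list. Of 3 seed markers, 1 was called lower, where 8.15% of all probe sets were. This was the oleosin OLEO3, at 253 and 139 untreated against 40.4 and 80.3 in wild type, a log2 change of -1.18 ± 0.25 (SE; adjusted p = 0.00782). OLEO3 was not called without untreated replicate 1 (adjusted p = 0.0701) or wild-type replicate 1 (adjusted p = 0.0818). It read 2647 and 2623 in the line at 4 h (wild type minus line at 4 h -4.70, adjusted p = 3.95e-06). The 3 reference genes changed by -0.12 to 0.02 and none was called.

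Some of the largest changes fell outside the lists. AT5G62360, a pectin methylesterase inhibitor family protein, read 143 and 164 in the untreated line and 5264 and 4327 in wild type, a log2 change of 4.61 ± 0.19 (SE; adjusted p = 4.68e-07). AT4G34950, a transporter of the major facilitator family, read 74.5 and 149 against 3222 and 3051, a log2 change of 4.38 ± 0.21 (SE; adjusted p = 7.06e-07). The aspartyl protease family gene AT5G48430 read 161 and 128 against 2220 and 1811, a log2 change of 3.44 ± 0.17 (SE; adjusted p = 7.35e-07). These 3 were named for their large called rises, so the separation of their arrays follows from that choice. AT4G22610, of the lipid-transfer protein type, changed by 3.19 (adjusted p = 1.59e-05) and AT1G74010, of the strictosidine synthase-like family, read 9.4 and 72.2 against 731 and 479 (adjusted p = 1.27e-04). AT2G41730 changed by 3.80 (adjusted p = 7.36e-05), read by a probe set whose name marks probes that may bind other transcripts. Among the falls AT4G10910, of unknown function, read 1509 and 1044 against 53.7 and 21.7, a log2 change of -4.00 ± 0.38 (SE; adjusted p = 4.14e-05). AT1G04660, a glycine-rich protein, read 965 and 1679 in the untreated line and 70.0 and 14.3 in wild type, a log2 change of -4.00 ± 0.32 (SE; adjusted p = 1.42e-05). AT1G04660 was high in the line at every time, at 1673 and 2239 at 1 h and 3275 and 4550 at 4 h, and at 4 h it was lower in wild type than in the line (wild type minus line at 4 h -5.56, adjusted p = 5.76e-06).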

How the data were processed

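Linear intensity values, 1 for each probe set on each array, were taken as deposited by the authors; per the submitters' processing notes they came from MAS5, with its version not given in the sources used here. Without detection calls a low signal cannot be told from background. Here 64 control probe sets were left out, log2(intensity + 45) was taken, 45 being about the 25th percentile of the table, and all 22746 other probe sets were fitted without a filter in limma 3.58.1 (R 4.3.3; lmFit with 1 mean per group over 8 arrays, eBayes with a mean-variance trend, 4 residual and 6.79 prior degrees of freedom). Adding 45 understates the change of dim genes. The fit was tested on simulated data. With 2 arrays in a group, precision is limited by their number.

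Probe sets were named from GEO's platform annotation: 13513 (59.4%) have 1 gene, 503 have several and 8730 stay unnamed; 13436 matched RefSeq TAIR10.1, used for names only. Probe sets of gene families can read near-identical copies. The comparison and the gene lists were chosen with earlier results of these data known, and the lists were extended by locus once it was clear how few of their genes had a named probe set. Aquaporin and fasciclin-like lists had 0 named probe sets. No list was tested as a set. Genes were named from all members of lists with up to 12 probe sets, in longer lists the 5 largest called rises and falls and the 2 brightest, and the 10 largest rises and falls in all. The alternatives were 2 other pseudocounts, a filter on low values, quantile normalization, the 4 arrays alone, replicate number as a block, each array left out, and no variance trend. Replicate numbers come from the labels; deviations of same-numbered arrays of the 2 groups correlated at -0.01, so the numbers were not taken to pair samples. The instrument records place the 4 arrays on fluidics station 1, modules 1 and 2 for wild type and 3 and 4 for the untreated line, so the module and the group cannot be told apart. Promoter sequences were not used here.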

Additional observations from a re-analysis of the deposited data

How the results depend on the processing

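Of 139 named genes, 120 were called, and 88 of these were called without any 1 of the 4 arrays as well. Leaving out 1 of the 4 arrays gave 2199 to 2830 calls in place of 4045, 1159 to 1580 higher in place of 2191 and 1040 to 1250 lower in place of 1854, with fewer degrees of freedom. All other alternatives stayed within 1.5 times: 2977 calls without the variance trend, 3733 with the 4 arrays alone, 3740 (2013 higher, 1727 lower) without replicate 2 of the line at 4 h, whose record carries a comment on high background, 3999 and 4124 with pseudocounts of 150 and 1, 4038 with quantile normalization, and 4679 with the filter on low values. With replicate number as a block, 3933 probe sets were called and no call on a named gene changed; the numbers are not shown to pair the samples. Of the 120 called genes, 12 were not called without the trend, 5 with quantile normalization, 5 with the 4 arrays alone, 2 with a pseudocount of 1 and 1 with 150. Without the trend 19 ribosomal protein genes were called in place of 42, and 49 with quantile normalization. Among the 139, direction turned only for genes that were not called: LHCB4.1 (0.113) and PSAE-1 (0.057) with quantile normalization, and AT4G24110 (-0.32 to 0.51 with 1 array left out, below 0 without untreated replicate 2 or wild-type replicate 2). The causes were not tested. A search of promoters was planned and not run.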

Other observations

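The next 3 genes read high on all 6 arrays of the transgenic line and low on both wild-type arrays, and they were chosen after their values were seen. The F-box gene AT3G23880 read 1808 and 1334 in the untreated line, 1185 and 1165 at 1 h, 1086 and 935 at 4 h and 164 and 136 in wild type, a log2 change of -3.04 ± 0.17 (SE; adjusted p = 1.55e-06) against the untreated line and -2.44 (adjusted p = 2.32e-05) against the line at 4 h. AT5G57785, of unknown function, read 2353 and 2109 in the untreated line, 2555 and 2246 at 1 h, 4221 and 3980 at 4 h and 245 and 274 in wild type, a log2 change of -2.90 ± 0.12 (SE; adjusted p = 4.68e-07) against the untreated line and -3.77 (adjusted p = 5.82e-08) against the line at 4 h. THI2.2, a thionin, read 5338 and 3053 in the untreated line, 4994 and 2916 at 1 h, 3521 and 4361 at 4 h and 526 and 509 in wild type, a log2 change of -2.86 ± 0.27 (SE; adjusted p = 3.87e-05) against the untreated line and -2.82 (adjusted p = 1.88e-04) against the line at 4 h. For these genes, as for AT1G04660, the treated and the untreated line lay on the same side of wild type. AKINBETA1, MCCA and AT3G09440 did not differ by test between wild type and the line at 4 h (differences of 0.03 (adjusted p = 0.979), -0.02 (adjusted p = 0.99) and -0.08 (adjusted p = 0.949)). Neither did most probe sets, of which 3.32% were called there. The labels say nothing on whether other differences in genotype or seed stock exist between the line and wild type, and the part of the transgene in these values was not tested.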
